A study of Drosophila melanogaster with 14 samples.

Results

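The transcripts of 10 basement membrane genes were followed in *Drosophila* embryos mutant for a class of isoforms of *sgg*, the fly glycogen synthase kinase 3. The genes were taken by name from the authors' result tables and traced by FlyBase identifier into the gene counts, where all 10 of them were found among 17493 genes. They are *vkg*, *Col4a1*, *LanA*, *LanB1*, *LanB2*, *SPARC*, *Ndg*, *trol*, *Pxn* and *Ppn*, and each passed the filter on low counts in every comparison. Whole embryos of 10 to 15 h were measured in 14 samples. The sggisoA null embryos (3 samples) came from a homozygous sggisoA stock. That stock lacks the C-terminal exon specific to the Sgg-PA class of protein isoforms, and the sggisoB allele lacks the one specific to the Sgg-PB class. The sggisoA nulls were compared with the progenitor strain attP40 (3 samples). The sggisoB zygotic null embryos (4 samples) were the non-fluorescent progeny of sggisoB/FM7 GFP mothers and FM7 GFP/Y fathers, and their controls (4 samples) were the non-fluorescent progeny of progenitor/FM7 GFP mothers and the same fathers. The FM7 GFP balancer carries a *twi*-GAL4 driver with UAS-GFP, so embryos without fluorescence carry no balancer and by the cross are male. Maternal sgg product remains in the sggisoB zygotic nulls, whereas the sggisoA embryos had mutant mothers and were not sorted. The study's text calls the sggisoA replicates biological ones, and for sggisoB the labels name them only as separate samples, so there p-values measure the spread between these samples, which may be technical in part.

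The basement membrane is a thin sheet of extracellular matrix that lines the basal face of epithelia and wraps muscle, nerve cord and gut. Laminin trimers bind cell surface receptors and start the sheet, collagen IV trimers form a second network that gives it strength, and nidogen and perlecan sit between the 2 networks. In the fly embryo most collagen IV is secreted by hemocytes, the blood cells that migrate through the body while the tissues condense.

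Total counts on genes ranged from 15841397 to 18311205 in the sggisoA nulls and from 8082962 to 12800846 in their controls. They ranged from 14378062 to 25124367 in the sggisoB nulls and from 11189291 to 23798611 in their controls. The 10 genes took between 0.819% and 1.36% of all counts, and the lowest count of any of them in any library was 954, for *Pxn*. Levels are given in CPM, which are counts relative to library size, scaled by the TMM method over all 14 samples. One library stood apart for these genes. In sggisoB null replicate 1 all 10 of them were above the other 3 null samples, whereas 30% of all genes were highest in that library. The median log2 deviation of the 10 from the mean of the other 3 nulls was 0.41. Their summed level was 14000 CPM there and 9260 to 10400 CPM in the other 3 nulls, against 10300 to 11500 CPM in the 4 controls. In the sggisoB controls, 9 of the 10 genes were highest in replicate 2. These were the shallowest libraries of their groups, and the part of depth in this was not tested. Where leaving out null replicate 1 of sggisoB changed which threshold a gene passed, the value without it is given as well. It is also given for some genes where no threshold was crossed.

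No basement membrane gene was called in either mutant. A call needed both an adjusted p of at most 0.05 (edgeR's quasi-likelihood test, Benjamini-Hochberg over all genes kept) and a log2 fold change of 0.7 or more, up or down. In the sggisoA nulls 0 of 10 members were called, where 0.971% of 10397 genes tested were. In the sggisoB nulls 0 of 10 were called, where 4.56% of 10693 genes were. At an unadjusted p under 0.05 there were 2 members in sggisoA (18.9% of all genes) and 2 in sggisoB (30.9% of all genes). limma-voom and DESeq2 also called 0 members in either mutant. The 95% interval of the log2 fold change lay inside 0.7 in both directions for each of the 10 genes in each mutant, from -0.61 at the lowest to 0.45 at the highest in sggisoA and from -0.63 to 0.69 in sggisoB. These intervals hold gene by gene and are not adjusted for their number. In sggisoA 7 of the 10 fitted values were above 0 and in sggisoB 5 were, and 49.1% of all genes were in either. The median log2 fold change of the 10 was 0.06 in sggisoA, where that of all genes was -0.01, and 0.01 in sggisoB, where that of all genes was also -0.01. Without sggisoB null replicate 1, 4 of the 10 were above 0, where 49.3% of all genes were, and their median was -0.15.

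**Figure D1:**
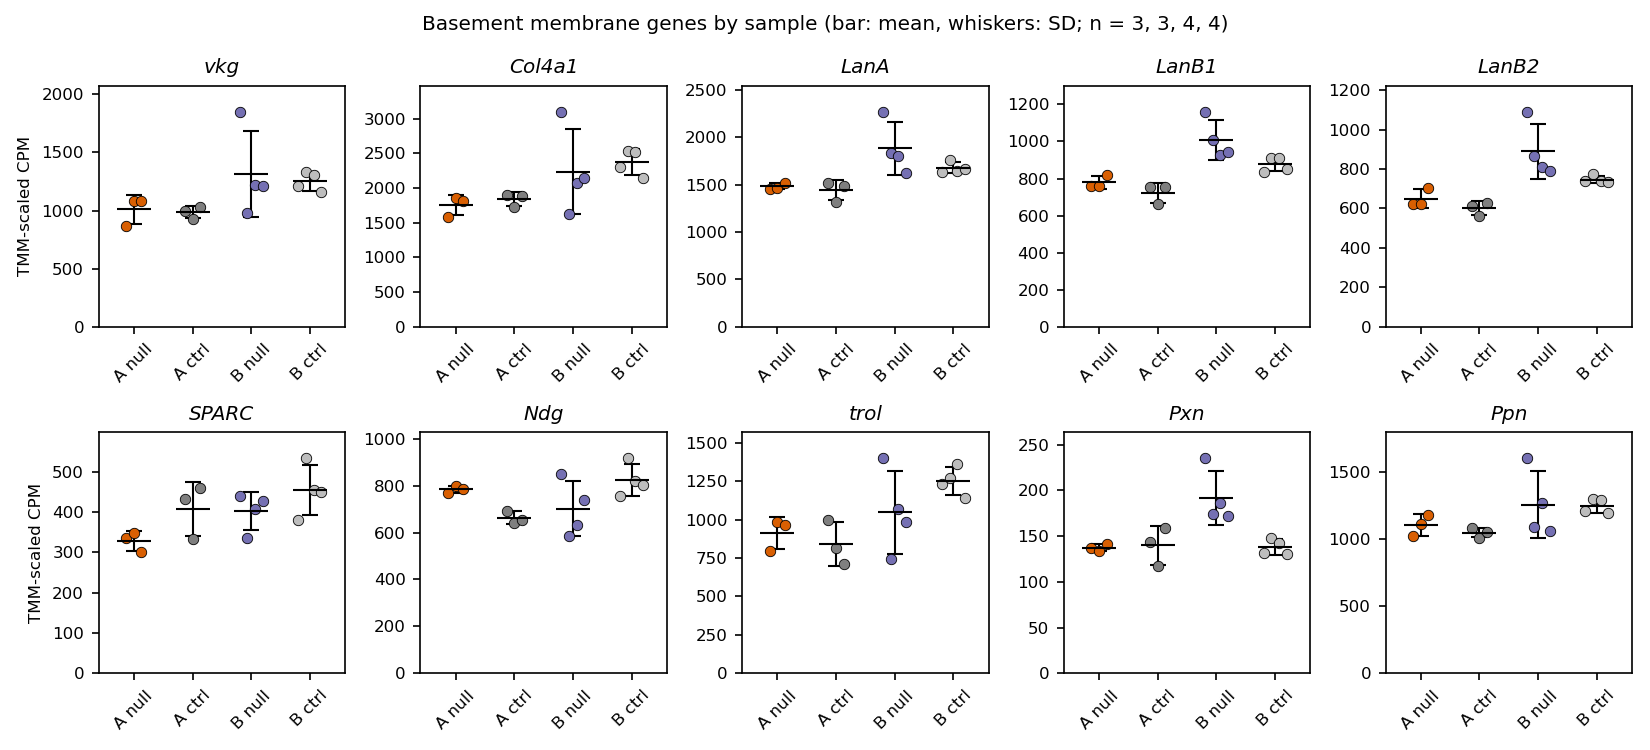
TMM-scaled CPM (y axes, from 0) of the 10 genes in each sample of the 4 groups (A null and A ctrl, sggisoA nulls and controls; B null and B ctrl, sggisoB zygotic nulls and controls), with the mean (bar) and SD (whiskers). The first sggisoB null point is the highest of its group in every panel (for example 1850 CPM for *vkg*), and the *Pxn* points of the sggisoB nulls (172 to 235 CPM) all lie above their controls (130 to 148 CPM).

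**Figure D2:**
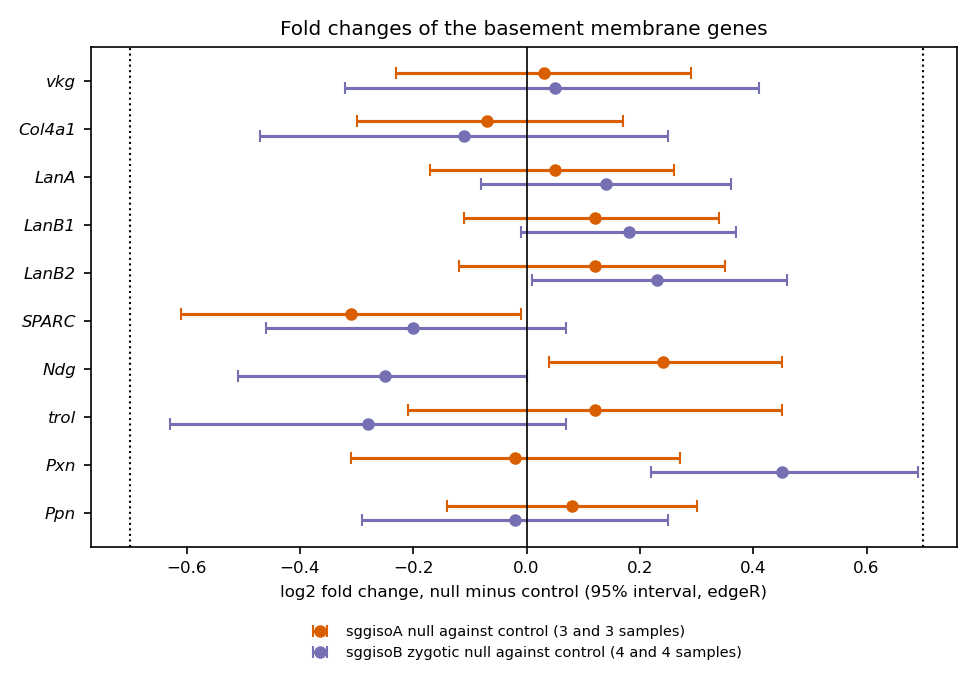
Fitted log2 fold change of null against control (x axis, with its 95% interval) for each of the 10 genes in sggisoA (orange) and sggisoB (purple), with dotted lines at the threshold of 0.7 in either direction. All intervals lie between the dotted lines, and *Pxn* in sggisoB (0.45, interval 0.22 to 0.69) is the farthest from 0.

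*vkg* (FBgn0016075, chromosome 2L, 5012144 to 5028191, minus strand) and *Col4a1* (FBgn0000299, 2L, 5029609 to 5037279, plus strand) encode the 2 chains of collagen IV, the alpha 2 and alpha 1 chains. In the Release 6 assembly the genes stand head to head, with their starts 1417 bp apart. *vkg* was at 869, 1080 and 1080 CPM in the sggisoA nulls and at 999, 931 and 1030 CPM in their controls. *Col4a1* was at 1590, 1850 and 1820 CPM in these nulls and at 1900, 1720 and 1890 CPM in the controls. The groups overlapped for both chains. The log2 fold changes were 0.03 for *vkg* (SE 0.11, adjusted p = 0.895, edgeR) and -0.07 for *Col4a1* (SE 0.10, adjusted p = 0.75). In the sggisoB nulls *vkg* was at 1850, 982, 1220 and 1210 CPM, against 1210, 1330, 1310 and 1160 CPM in the controls. *Col4a1* was at 3100, 1630, 2080 and 2140 CPM in these nulls and at 2310, 2540, 2520 and 2150 CPM in the controls. The spread among the nulls, set by the high replicate 1, covered the controls on both sides. The log2 fold changes were 0.05 for *vkg* (SE 0.16, adjusted p = 0.869, edgeR) and -0.11 for *Col4a1* (SE 0.16, adjusted p = 0.664). Without null replicate 1 they were -0.15 (adjusted p = 0.274) and -0.30 (adjusted p = 0.0941), and the 3 remaining *Col4a1* values were then all below the 4 controls.

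The laminin chains among the members are *LanA* (alpha; FBgn0002526, chromosome 3L, 6203831 to 6218022), *LanB1* (beta; FBgn0261800, 2L, 7811438 to 7820771) and *LanB2* (gamma; FBgn0267348, 3L, 9614914 to 9623980). In sggisoA they differed little between groups. *LanA* was at 1460, 1470 and 1520 CPM in the nulls and at 1520, 1320 and 1490 CPM in the controls, a log2 fold change of 0.05 (SE 0.10). *LanB1* was at 760, 760 and 821 CPM in the nulls and at 752, 662 and 753 CPM in the controls. *LanB2* was at 623, 624 and 704 CPM against 613, 563 and 630 CPM. All null values of *LanB1* lay above its controls and those of *LanB2* overlapped, and the log2 fold change was 0.12 for each (SE 0.10, adjusted p = 0.547 and 0.558, edgeR). In the whole list 2 of 10 members, *LanB1* and *Ndg*, had groups that did not overlap in sggisoA, where 24.7% of all genes tested did not.

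In sggisoB these 3 laminin chains had positive fold changes that did not pass the test. *LanA* was at 2270, 1840, 1800 and 1620 CPM in the nulls and at 1630, 1760, 1650 and 1670 CPM in the controls, with overlap (log2 0.14, SE 0.10). *LanB1* was at 1160, 1010, 925 and 942 CPM in the nulls and at 835, 912, 909 and 854 CPM in the controls. *LanB2* was at 1090, 866, 812 and 789 CPM in the nulls and at 738, 773, 740 and 734 CPM in the controls. For *LanB1* and *LanB2* every null sample was above every control. The log2 fold changes were 0.18 (SE 0.08, adjusted p = 0.178, edgeR) and 0.23 (SE 0.10, adjusted p = 0.151), and 0.11 (adjusted p = 0.289) and 0.13 (adjusted p = 0.22) without null replicate 1. With *Pxn* these were the 3 of 10 members whose sggisoB groups did not overlap, all higher in the nulls, where 20.7% of all genes did not overlap in either direction and 9.45% were higher in the nulls.

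*Ndg* (FBgn0026403, chromosome 2R, 10313891 to 10322104) encodes nidogen, which binds laminin and collagen IV. It was at 768, 799 and 787 CPM in the sggisoA nulls and at 694, 643 and 654 CPM in their controls. Every null sample was above every control, and the log2 fold change of 0.24 (SE 0.09, 95% interval 0.04 to 0.45) had an adjusted p of 0.211 (edgeR). In sggisoB it was at 851, 586, 634 and 740 CPM in the nulls and at 755, 917, 820 and 804 CPM in the controls. There 3 of the 4 nulls were below all controls and replicate 1 lay among them, for a log2 fold change of -0.25 (SE 0.12, adjusted p = 0.168, edgeR), and -0.35 (adjusted p = 0.0552) without that replicate. Of its exon bases 158 are shared with *CG34222* on the opposite strand, and reads over both genes were not counted.

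*trol* (FBgn0284408, X chromosome, 2470460 to 2545427, minus strand) encodes perlecan, the heparan sulphate proteoglycan of the sheet. The gene lies 88.5 kb from *sgg* itself. It was at 795, 982 and 964 CPM in the sggisoA nulls and at 999, 818 and 711 CPM in their controls, with overlap (log2 0.12, SE 0.15, adjusted p = 0.679, edgeR). In sggisoB it was at 1400, 745, 1070 and 982 CPM in the nulls and at 1230, 1270, 1360 and 1140 CPM in the controls. Null replicate 1 was above all controls and the other 3 nulls were below all of them. The log2 fold change was -0.28 (SE 0.16, adjusted p = 0.256, edgeR) with replicate 1 and -0.44 (SE 0.12, adjusted p = 0.0508) without it. Across the list, leaving out that replicate raised the members without overlap from 3 to 6 of 10 (background 28.5%). *Col4a1*, *Ndg* and *trol* were then lower in every null, as were 15.6% of all genes, and *LanB1*, *LanB2* and *Pxn* were higher in every null, as were 12.9%.

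*SPARC* (FBgn0026562, chromosome 3R, 26869238 to 26871995) encodes a secreted glycoprotein that binds collagen IV and is needed for its stability in the matrix. It was at 337, 349 and 301 CPM in the sggisoA nulls and at 433, 333 and 460 CPM in their controls, where replicate 2, the shallowest control, lay among the nulls. The log2 fold change was -0.31 (SE 0.13, 95% interval -0.61 to -0.01, adjusted p = 0.258, edgeR). In sggisoB it was at 441, 335, 408 and 428 CPM in the nulls and at 380, 534, 456 and 451 CPM in the controls, with overlap (log2 -0.20, SE 0.12, adjusted p = 0.279, edgeR). *Ppn* (FBgn0003137, 3R, 28520665 to 28540324) encodes papilin, a large matrix glycoprotein. It was at 1020, 1110 and 1180 CPM in the sggisoA nulls and at 1080, 1010 and 1050 CPM in their controls. In sggisoB it was at 1600, 1090, 1270 and 1060 CPM in the nulls and at 1210, 1300, 1290 and 1190 CPM in the controls. Both comparisons overlapped, and the log2 fold changes of *Ppn* were 0.08 (SE 0.10) and -0.02 (SE 0.12).

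*Pxn* (FBgn0011828, chromosome 3L, 2601455 to 2630064) encodes peroxidasin, the peroxidase that forms sulfilimine bonds between collagen IV trimers. It was at 137, 134 and 141 CPM in the sggisoA nulls and at 144, 117 and 159 CPM in their controls, so the nulls lay within the range of the controls (log2 -0.02, SE 0.13, adjusted p = 0.939, edgeR). In the sggisoB nulls it was at 235, 174, 186 and 172 CPM, and in their controls at 131, 148, 142 and 130 CPM. Every null was above every control. The log2 fold change was 0.45 (SE 0.11, 1.37-fold, adjusted p = 0.0265, edgeR), and 0.35 (adjusted p = 0.0288) without null replicate 1. *Pxn* was the only member to pass the adjusted p in a mutant, as 11.1% of all genes did in sggisoB, and it stayed under the fold threshold. Its adjusted p ran from 0.00137 to 0.0936 over the alternatives. It was 0.0578 without null replicate 3 and between 0.0563 and 0.0746 with any 1 of the 4 controls left out. Of its exon bases 233 are shared with *CG16986* on the opposite strand and *lncRNA:CR45660*.

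Whether a member responded differently in the 2 mutants was tested by the difference of the 2 effects in a fit of all 14 samples, called at an adjusted p of at most 0.05. Here 0 of 10 members passed, where 2.54% of 11021 genes did, and 2 had an unadjusted p under 0.05, where 20.9% of genes did. These were *Ndg*, with a difference of -0.47 on the log2 scale (SE 0.16, adjusted p = 0.112, edgeR), and *Pxn*, with 0.50 (SE 0.17, adjusted p = 0.111). Single libraries moved both across the threshold. Without sggisoB null replicate 1 the difference for *Ndg* was -0.58 (adjusted p = 0.0383), and without sggisoA control replicate 2 that for *Pxn* was 0.59 (adjusted p = 0.0479).

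The median size of the fitted log2 difference was larger between the 2 sets of controls (0.30 over the 10 members) than between null and control in sggisoA (0.10) or sggisoB (0.19), and the sizes were not tested against each other. In the sggisoB controls 9 of 10 members were above the sggisoA controls by the fitted value, where 48.7% of all genes were, with a median log2 difference of 0.30 (all genes -0.01). For 8 of 10 no sample overlapped, where 34.6% of all genes did not. None of the 10 was called (9.35% of genes were), and 7 had an unadjusted p under 0.05, as 40.9% of genes had. *LanB1* (0.28, adjusted p = 0.0332), *LanB2* (0.31, adjusted p = 0.0412) and *trol* (0.57, adjusted p = 0.0281, edgeR) passed the adjusted p alone, as did 26.8% of genes. With sggisoA control replicate 1 left out *trol* reached 0.74 and was called, and with replicate 3 left out it was at 0.49 (adjusted p = 0.0964). With upper quartile scaling the adjusted p was 0.101 for *LanB1* and 0.0944 for *LanB2*. Cross, embryo sex, sorting and experiment cannot be told apart in this contrast. The exceptions were *Pxn* (-0.02) and *SPARC* (0.15), whose groups overlapped. The markers of glia (4 of 4 positive, median 0.37), epidermis (4 of 4, 0.36), neurons (4 of 4, 0.29) and muscle (8 of 8, 0.21) were also above 0 in this contrast. Those of fat body were below 0 (0 of 3 positive, median -0.45), and those of hemocytes were on both sides (7 of 13 positive, median 0.21). The lowest hemocyte value was -2.16, and *NimC1* was at -2.04. The markers' part in this contrast was not tested.

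To compare genes with each other, levels were divided by the length of their joined exons (FPKM). *Col4a1* and *SPARC* led in every group, at 284 ± 23.1 and 274 ± 20.9 FPKM in the sggisoA nulls (SD, n = 3) and at 386 ± 30.3 and 379 ± 52.6 FPKM in the sggisoB controls (SD, n = 4). These 2 overlapped in all 4 groups and could not be ordered. In the sggisoB nulls the range of *SPARC* also overlapped that of *vkg*, though within each of these samples *SPARC* was the higher (ratio of *vkg* to *SPARC* 0.521 to 0.773). In the sggisoA groups and the sggisoB controls *vkg* and *Ndg* came next, at 138 to 193 FPKM in group means, with overlapping ranges. Within each control sample of both experiments *vkg* was above *Ndg* (ratio 1.07 to 1.19). *LanA*, *LanB1*, *Ppn* and *LanB2* followed in that order with means of 102 to 143 FPKM, each overlapping the next. In the sggisoB nulls the ranges of neighbouring genes from *vkg* to *Ppn* overlapped, and by group means *Ndg* came after the laminin chains. Within each of these nulls *vkg* was above *Ndg* (ratio 1.21 to 1.61) and above *Ppn* (ratio 1.32 to 1.7). *trol* was at 40.8 to 60.4 FPKM and *Pxn* last, at 23.1 to 32.2 FPKM. The ranges of these 2 overlapped in the sggisoB nulls only, where *trol* was above *Pxn* within each sample (ratio 1.23 to 1.71). The joined exons of *trol* cover 20674 bp over many alternative transcripts, which lowers its value per length.

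The 3 laminin chains among the members were close to each other per length. The ratio of *LanA* to *LanB1* was between 0.923 and 1.09 over the 14 samples and that of *LanB1* to *LanB2* between 1 and 1.16. That of *LanA* to *LanB2* was between 1.04 and 1.26. The ratio of *Col4a1* to *vkg* was between 1.75 and 2.03. It was 1.93, 1.81 and 1.78 in the sggisoA nulls and 2.01, 1.94 and 1.93 in their controls. It was 1.77, 1.75, 1.8 and 1.87 in the sggisoB nulls and 2.02, 2.01, 2.03 and 1.95 in their controls. In both experiments every null was below every control, although the nearest samples of sggisoA both round to 1.93. Null replicate 1 of sggisoB, where both chains were high, lay among the other nulls at 1.77. This ratio was picked after its values were seen, among 45 pairs of the 10 genes, and is given without a test. Of these pairs 15 (33.3%) did not overlap in sggisoA, where 24.5% of all pairs of genes did not, and 24 (53.3%) did not overlap in sggisoB, where 19.6% of all pairs did not. The 45 pairs come from only 10 genes and are not independent, and every pair with *Pxn* was among the 24. The pairs of all genes include genes of low counts with noisier ratios, whereas the members had at least 954 counts. In both mutants 7 pairs did not overlap. The direction was the same in 4 of them (8.89% of the 45, against 3.74% of all pairs of genes), namely *Col4a1* to *vkg*, *Col4a1* to *LanB2*, *LanB1* to *SPARC* and *SPARC* to *Pxn*. It was opposite in the other 3 (6.67%, against 1.5% of all pairs), namely *vkg*, *LanA* and *Pxn*, each paired with *Ndg*.

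**Figure D3:**
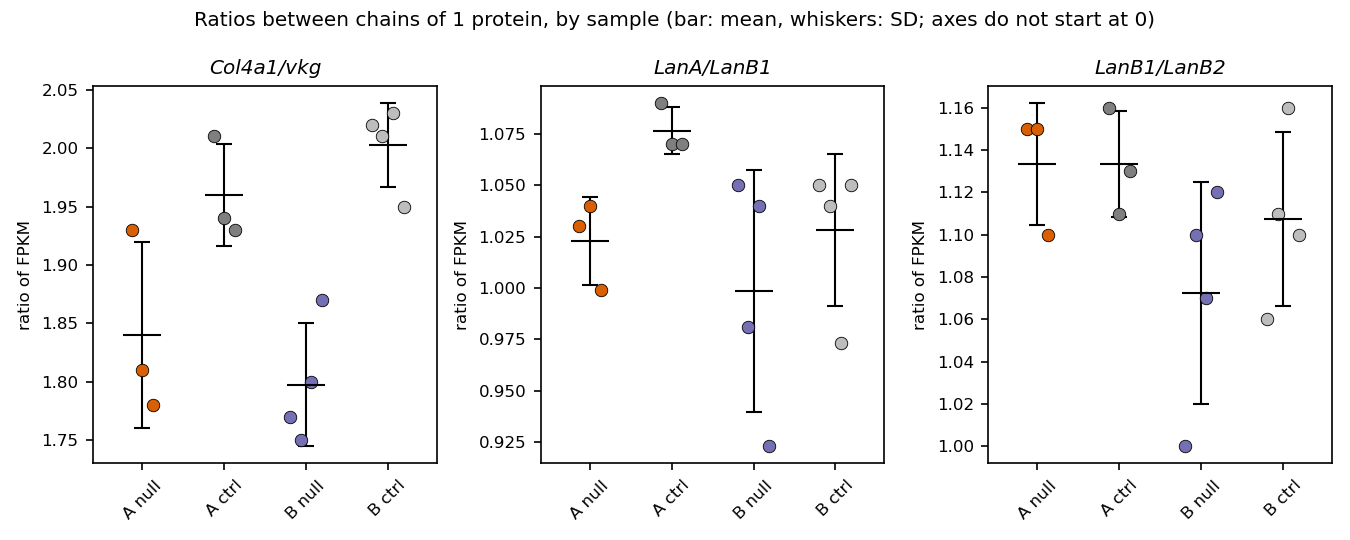
Ratio of FPKM between chains of collagen IV (*Col4a1* to *vkg*) and of laminin (*LanA* to *LanB1*, *LanB1* to *LanB2*) in each sample, with mean (bar) and SD (whiskers); y axes do not start at 0. The *Col4a1* to *vkg* ratio lies between 1.75 and 1.93 in the nulls and between 1.93 and 2.03 in the controls.

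The members moved together between samples to different degrees. After removal of the group means, the log2 CPM of *vkg* and *Col4a1* correlated at 0.99 over the 14 samples, *LanA* and *LanB2* at 0.94, and *LanB1* and *LanB2* at 0.93. *SPARC* was the least tied to the rest, down to 0.26 with *LanB2*. All points of a sample share 1 library, so these values describe the libraries. The genes outside the list whose profile over the 14 samples was most like the mean of the 2 collagen chains were *sas* (Pearson 0.925), *Mhc* (0.910), *Tig* (0.907), *c12.2* (0.905) and *sls* (0.903). *Mhc* and *sls* encode myosin heavy chain and a titin-like protein of muscle, and *Tig* encodes the integrin ligand tiggrin. Among the members *Ppn* came closest (0.921), and *Pxn* was the least alike (0.565). The summed level of 8 muscle genes was likewise highest of the nulls in sggisoB null replicate 1, at 25500 CPM against 17500 to 21900 CPM. This held for 7 of the 10 lists other than the members, among them neurons (868 against 655 to 760 CPM), glia (370 against 292 to 322 CPM) and epidermis (841 against 661 to 773 CPM), and not for hemocytes, fat body or collagen processing.

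Of the 10 genes listed for collagen processing and basal secretion, 4 passed the adjusted p in sggisoB (11.1% of all genes did), all higher in the nulls and all under the fold threshold. The other 6 did not pass, with log2 fold changes from -0.17 (*strat*) to 0.16 (*Rab8*). *PH4alphaEFB*, a prolyl 4-hydroxylase, was at 145 to 164 CPM in the 4 nulls and at 93.1 to 104 CPM in the 4 controls (log2 0.61, SE 0.07, adjusted p = 0.00193, edgeR). *Plod*, the lysyl hydroxylase of collagen, was at 516 to 561 against 369 to 441 CPM (0.39, SE 0.08, adjusted p = 0.0158). *Pdi*, a protein disulphide isomerase, was at 1150 to 1530 against 955 to 1070 CPM (0.38, adjusted p = 0.0352), and *Tango1*, which loads collagen at the exit of the endoplasmic reticulum, at 175 to 202 against 146 to 157 CPM (0.26, adjusted p = 0.0378). No sample overlapped for any of the 4. Without null replicate 1 *PH4alphaEFB* and *Plod* still passed, and *Pdi* (adjusted p = 0.0512) and *Tango1* (0.0522) did not. In sggisoA 0 of the 10 passed (0.991% of all genes did), with *PH4alphaEFB* at 100 to 108 CPM in the nulls and 104 to 127 CPM in the controls. *Pdi* was there at 893 to 1120 CPM in the nulls and 1180 to 1730 CPM in the controls, without overlap (log2 -0.43, adjusted p = 0.216, edgeR). The effects on *PH4alphaEFB* (0.83, SE 0.12, adjusted p = 0.00223) and *Pdi* (0.83, SE 0.19, adjusted p = 0.033) differed between the mutants by the test of the difference, at which 2.54% of all genes passed. Both genes also differed between the 2 sets of controls, where the sggisoB controls were lower by the fitted log2 values of -0.28 for *PH4alphaEFB* (adjusted p = 0.0275) and -0.46 for *Pdi* (adjusted p = 0.0211).

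**Figure D4:**
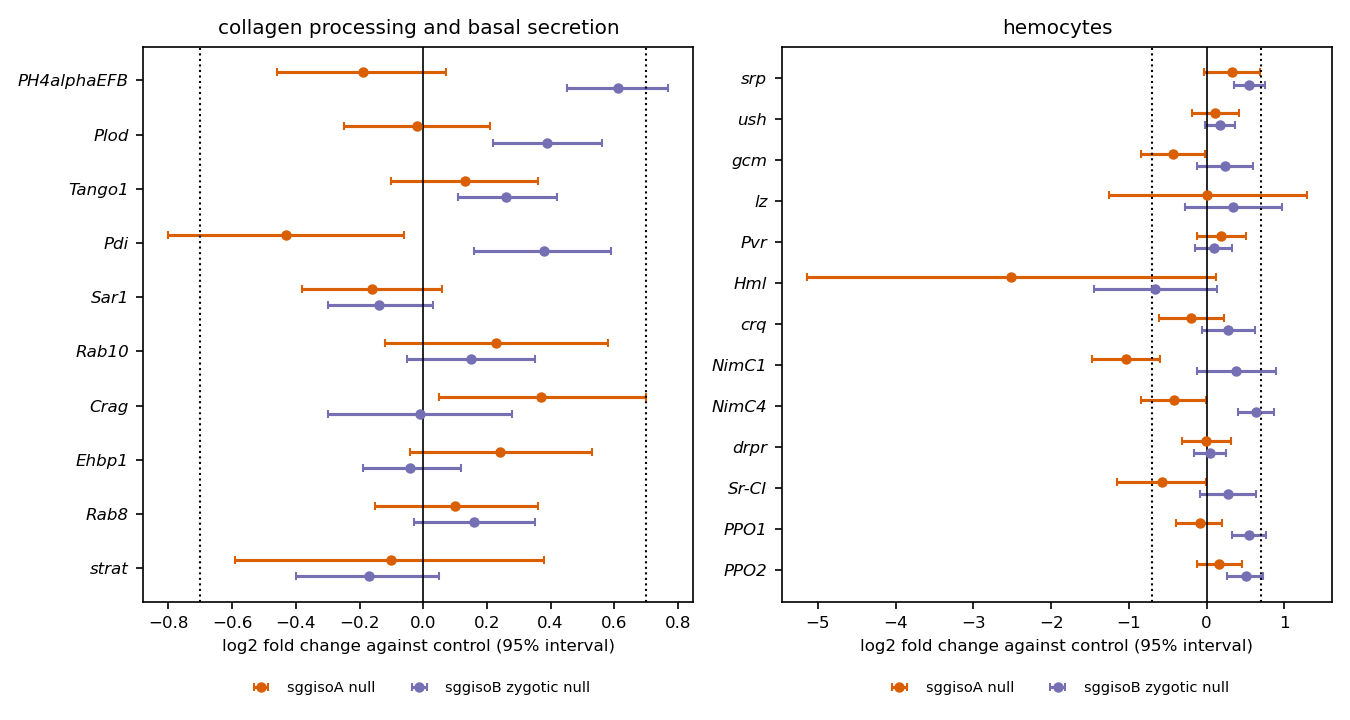
Fitted log2 fold change of null against control (x axes, with 95% intervals) for the genes of collagen processing and basal secretion (left) and for the hemocyte markers (right), in sggisoA (orange) and sggisoB (purple); dotted lines mark 0.7 in either direction. In sggisoB *PH4alphaEFB* (0.61), *Plod* (0.39), *Pdi* (0.38) and *Tango1* (0.26) lie above 0 with their intervals, and so do *srp* (0.55), *NimC4* (0.63), *PPO1* (0.54) and *PPO2* (0.50).

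Some markers of hemocytes were higher in the sggisoB nulls. Which of the markers belong to the cells that secrete collagen IV was not tested. Of 15 markers listed, 13 were tested, and 12 of the 13 had positive fold changes in sggisoB (49.1% of all genes did), with a median of 0.28. *srp*, the GATA factor of the lineage, was at 90.7 to 118 CPM in the nulls and at 61.8 to 72 CPM in the controls (0.55, SE 0.09, adjusted p = 0.00848, edgeR). *NimC4* (0.63), *PPO1* (0.54) and *PPO2* (0.50) passed the adjusted p as well (11.1% of all genes did), and 0 of 13 reached both thresholds (4.56% of all genes did). These 4 also passed the adjusted p without null replicate 1. The summed level of the markers was 949 to 1120 CPM in the sggisoB nulls and 790 to 823 CPM in their controls, without overlap, and 878 to 969 against 857 to 1040 CPM in sggisoA. Within the sggisoB sum the mean of *PPO1* was 163 CPM in the nulls and 111 CPM in the controls. That of *PPO2* was 215 CPM in the nulls and 150 CPM in the controls. *crq*, a scavenger receptor, was at 28.1 to 44.5 against 25.4 to 31.8 CPM in sggisoB (0.28, adjusted p = 0.242). *Hml*, hemolectin, was at only 1.19 to 2.38 CPM in the sggisoB nulls and 1.32 to 3.66 CPM in the controls. In sggisoA its fold change of -2.51 (SE 1.15, adjusted p = 0.28) lay between nulls at 1.24 to 2.77 CPM and controls spread from 0.735 to 31.4 CPM. No defining marker was at 0 throughout, *eater* had at most 3 counts in every null of both mutants and *NimC2* in every sggisoA control. The markers' part in the values of *Pxn* and of the collagen-processing genes was not tested, and in whole embryos more cells of a type and more RNA per cell cannot be told apart. In sggisoA *NimC1* was lowest against its controls after *Hml* (5.84 to 6.18 against 10.3 to 13.5 CPM, log2 -1.04, adjusted p = 0.0536).

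The other lists held 0 called genes in either mutant. Of the matrix receptors and adhesion adaptors 12 of 14 were matched and tested, with a median log2 fold change of 0.00 in sggisoA and -0.08 in sggisoB. *rhea*, talin, had the largest change in sggisoA (0.37, SE 0.13, adjusted p = 0.203), and *ItgaPS5*, an integrin alpha chain, in sggisoB (-0.36, SE 0.32). Of 13 other matrix proteins 1 passed the adjusted p in sggisoB, the glypican *dlp* (0.34, adjusted p = 0.0194), and the largest changes were -0.37 for *mfas* in sggisoA and -0.43 (adjusted p = 0.0876) for *prc*, pericardin, in sggisoB. Of 7 proteases, inhibitors and crosslinking enzymes 0 passed, with *Loxl1* at -0.48 in sggisoA and *Loxl2*, at 6 to 29 counts, at -0.73 (adjusted p = 0.16) in sggisoB. In sggisoB the medians of the marker lists were -0.19 for muscle, -0.13 for neurons, -0.07 for glia, 0.07 for epidermis and 0.03 for fat body, and 1 gene of each of the last 2 passed the adjusted p, *shg* (0.35, adjusted p = 0.0378) and *Mtp* (0.67, adjusted p = 0.0209). Without null replicate 1 *shg* did not pass (0.32, adjusted p = 0.0631), and *Mtp* passed both thresholds (0.72, adjusted p = 0.0297). In sggisoA they were -0.05, 0.14, 0.06, 0.09 and -0.44 in the same order.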

How the data were processed

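The authors sequenced poly(A) RNA from a single end, aligned it with TopHat 2.1.1 and Bowtie 2.3.4.0 per the submitters' processing notes, and counted reads over exons of the FlyBase Release 6 annotation with Rsubread. The deposited counts are whole reads per gene, not normalized; under default settings such counting ignores strand and drops reads that overlap more than 1 gene. The authors' result tables also hold voom expression values and the results of their own comparisons, none of which were used; they gave gene names, and their raw counts equalled those of the count table (0 differences). Here low genes were removed with filterByExpr (a minimum count of 10 and a minimum total of 15), and the rest were scaled by TMM and tested with edgeR 4.0.16 in R 4.3.3, within each experiment, without a block. Differences of effects and of controls came from 1 fit of 14 samples. The 95% intervals use the standard error of the fit. CPM and FPKM are on the scale of that fit, and FPKM uses exon lengths of a later annotation of the same assembly. limma 3.58.1 (voom), DESeq2 1.42.0, 2 other scalings, no filter, the replicate block and leaving out each replicate were alternatives. The tests were also run on simulated counts, with changes larger than any fitted for the members. How well they find smaller changes was not tested. Depth ran from 8082962 to 25124367 counts.

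The members and the gene lists were chosen with earlier results of these data known. Beside the 10 members, genes were named where called, where they had the largest change of a list, as *srp*, *Hml* and *crq*, or as the 5 most like the mean collagen profile. The genes past the adjusted p alone, *NimC1*, *eater* and the ratio of collagen chains were named after their values were seen. The authors' tables spell *trol* with a trailing hyphen, and it was matched by identifier. Symbols of 17361 of 17493 identifiers were in the reference table, and *Fermt1* and *Fermt2* were not matched. No 2 of the libraries were identical.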

Additional observations from a re-analysis of the deposited data

Results flagged for a closer look

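The level of *LanB2* in sggisoB control replicate 2 was far from the other 3 samples of its group, at 773 CPM against 734 to 740 CPM. It was 1 of 22 groups of 4 examined in this way, and chance gives about 1 in 20.

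The effects of the 2 mutations differed by the interaction test for 6 of 88 member and listed genes tested, and for none of the 10 members. These were *PH4alphaEFB* (0.83 on the log2 scale, sggisoB effect minus sggisoA effect), *Pdi* (0.83), *NimC1* (1.45), *NimC4* (1.08), *PPO1* (0.66) and *Mtp*, a fat body lipid transfer protein (1.14). All 6 differences were positive, so the sggisoB effect lay above the sggisoA effect, with adjusted p between 0.00223 and 0.0441 (edgeR). All 6 still passed without sggisoB null replicate 1. The 2 sets of controls also differed for 5 of the 6 by the adjusted p, with the sggisoB controls lower in each. These fitted log2 differences were -2.04 for *NimC1* (adjusted p = 6.92e-05, edgeR), -0.87 for *PPO1* (adjusted p = 3.36e-04), -0.61 for *Mtp* (adjusted p = 0.0262), -0.46 for *Pdi* (adjusted p = 0.0211) and -0.28 for *PH4alphaEFB* (adjusted p = 0.0275), and *NimC4* did not pass (-0.36, adjusted p = 0.0826).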

How the results depend on the processing

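No member was called in either mutant under any alternative run. The count of members with a difference of effects ran from 0 to 1 with a replicate left out, with *Ndg* from -0.58 to -0.39 and *Pxn* from 0.39 to 0.59, and so did the count of members that differ between controls, with *trol* from 0.49 to 0.74. The count of members without overlap in sggisoB went from 3 to 6 without null replicate 1, an alternative chosen after seeing the data, as were the others without that replicate for the members' median and the listed genes. Of 670 member fold changes recomputed, 31 changed sign, and none of these passed a test. In sggisoA these were *vkg* (-0.03) and *LanA* (-0.02) under upper quartile scaling and, with a replicate left out, *vkg* (-0.02 to 0.13), *Col4a1* (-0.10 to 0.00), *LanA* (0.00 to 0.07) and *Pxn* (-0.12 to 0.07). In sggisoB these were *Ppn* (0.01 under DESeq2 size factors, without a filter and under the DESeq2 test, 0.00 in the fit of 14 samples, -0.15 to 0.07 with a replicate left out), *vkg* (-0.15 to 0.18) and *Col4a1* (-0.30 to 0.03). For the difference of effects these were *Col4a1* (0.01 under upper quartile scaling, -0.22 to 0.11) and *vkg* (-0.17 to 0.16), and between controls *Pxn* (0.00 without a filter, -0.09 to 0.11). The cause was not tested.

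Samples with the same replicate number did not clearly deviate together (correlations of -0.20 to 0.19). With so few samples per group this check cannot tell whether samples were prepared in pairs. With the replicate block 0 members were called, and *Pxn* in sggisoB had 0.45 (adjusted p = 0.0936). Calls over all genes fell from 101 to 43 in sggisoA, from 488 to 170 in sggisoB and from 280 to 63 for the difference of effects. In sggisoA DESeq2 called 368 genes and the fit of 14 samples 295, and for the difference of effects DESeq2 called 852. Without a replicate, calls ran from 6 to 183 in sggisoA, 202 to 676 in sggisoB, 103 to 579 for the difference and 559 to 1359 between controls, so the background shares move with them. Of 11 listed genes past the adjusted p in sggisoB, 8 passed without null replicate 1 (*Pdi*, *Tango1* and *shg* did not); the listed genes were run under no other alternative.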
